A study of Mus musculus with 3 samples.

Results

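Cluster 3 is a set of 91 neuronal nuclei taken from sections of mouse brain around the lateral habenula (LHb), part of the epithalamus. Its members are the nuclei to which the authors' deposited metadata give both the cell class Neurons and the cluster number 3, out of 592 neuronal nuclei and 603 nuclei in all. The nuclei came from mice of 3 groups, which were mothers, virgin females and virgin males. In every group the nuclei had been sorted as positive for KASH-GFP, which anchors a green fluorescent protein to the nuclear envelope, and the labels tie them to LHb cells linked with the BNST (bed nucleus of the stria terminalis). The labels name no treatment and no difference between the groups other than sex and motherhood. The sources used here do not give the strain, the age or the route of the fluorescent label. Tissue of 3 mice was pooled in each group and gave 1 library of the 10x Chromium 3′ assay, so no group has a replicate. No difference between libraries was tested, for that reason, nor was any difference between clusters, since the authors drew the clusters from the same counts.

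The habenula and the neighbouring thalamus arise from adjoining parts of the diencephalon. LHb neurons are glutamatergic and send their output to the midbrain, and they are known for their part in aversion. Thalamic relay neurons are glutamatergic as well and project to the forebrain. Lef1 encodes a transcription factor through which Wnt signals act with beta-catenin and is a known mark of thalamic neurons. Prkcd encodes protein kinase C delta, an isoform that answers diacylglycerol without needing calcium and that is widely used to mark thalamic relay neurons. Cdh4 encodes R-cadherin, a classical cadherin that joins like to like at cell contacts.

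Cluster 3 carried its leading genes in most single nuclei. Of 91 nuclei, 73 had a UMI (unique molecular identifier, a counted transcript) of at least 4 of the 5 genes Prkcd, Abhd12b, Tspear, Cdh4 and Lef1, and 36 had all 5. The same was true of 9 of 97 nuclei in cluster 2, 11 of 172 in cluster 0, 1 of 157 in cluster 1 and 0 of 75 in cluster 4. By library, 31 of 35 cluster 3 nuclei of mothers, 14 of 17 of virgin females and 28 of 39 of virgin males held at least 4 of them. These counts use every UMI and were not evened out for UMIs per nucleus, which were highest in cluster 3. The 5 genes were given beforehand as its leading genes. No cell barcode was shared between libraries.

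All 91 nuclei carry the authors' LHb label. The sum of thalamic markers was highest in cluster 3. That of LHb markers was near the sum in cluster 2, with 2 of the 6 at 0 UMIs. The 6 thalamic markers Lef1, Prkcd, Rora, Ntng1, Gbx2 and Plekhg1 summed to 10455, 10358 and 10994 CPM in the libraries, named throughout in the order mothers, virgin females, virgin males. CPM are summed UMIs of the cluster in a library, scaled to a total of 1000000, and so give a share of the counted RNA. The mean of 10602 CPM was above the 8215 of cluster 2, the 7049 of cluster 0, the 2085 of cluster 1 and the 1316 of cluster 4. Most of that mean came from 2 of the 6 genes. Ntng1 gave 4843 CPM of it (4283 CPM in cluster 2), and Rora, described further on, gave most of the rest. Gbx2, a thalamic transcription factor, added only 6 UMIs to the sum. The LHb list (Chrm3, Gap43, Gpr151, Htr2c, Pcdh10 and Pou4f1, 6 genes) summed to 825, 1217 and 1487 CPM in cluster 3. The mean of 1176 CPM lay near that of cluster 2 (1157) and above that of cluster 0 (889), and below those of cluster 1 (1931) and cluster 4 (1807). The habenular genes Gpr151 and Pou4f1 had 0 UMIs among the 1476015 of cluster 3, which allows up to 2.03 CPM each at a floor of 3 UMIs. Pou4f1 was also at 0 in clusters 0 and 2, and Gpr151 had 6 UMIs in cluster 2. Of 8 medial habenula markers 6 had no UMI, and the sum of the others was 12.1 CPM. None of 5 markers of GABAergic neurons had a UMI. In cluster 2, 5 of the 8 and 4 of the 5 were at 0 as well. Astrocyte markers summed to 265 to 331 CPM over the libraries and microglial markers to 141 to 181 CPM, against means of 381 and 217 in cluster 2. Of 6 astrocyte markers, Gfap and Aldh1l1 were at 0, Aqp4, Slc1a3 and Gja1 had 5, 3 and 3 UMIs (0 each in cluster 2) and Slc1a2 had 440. Of 6 microglial markers Tmem119 was at 0. The deposited subtype labels put 88 nuclei in lhb_1 and 3 in lhb_3 by the first scheme, and 76 in LHb1 and 15 in LHb2 by the other. Cluster 2 was labelled much the same, with 85 of its 97 nuclei in lhb_1 and 74 in LHb1. In the coarser clustering that the authors deposited beside it, all nuclei of clusters 2 and 3 fell into 1 cluster, together with 112 of the 172 of cluster 0.

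Depth was higher in cluster 3 than in the others. Its nuclei held a median of 15007 UMIs and 4735 genes with a UMI (3647 to 33991 UMIs), against 12639 UMIs in cluster 2 and 9431 to 11465 in clusters 0, 1 and 4. The 35 nuclei of mothers had a median of 14706 UMIs, the 17 of virgin females 19364 and the 39 of virgin males 12968. The summed counts were 556689, 347560 and 571766 UMIs, so that 3 UMIs stand for 5.39, 8.63 and 5.25 CPM. Percentages of nuclei with a UMI are therefore given after each nucleus was thinned at random to 5000 UMIs, which left out 2 nuclei of cluster 3. Counts out of all nuclei of a cluster or library use every UMI.

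Prkcd stood at 611, 596 and 427 CPM in cluster 3. The mean was 544 ± 102 CPM (SD over the 3 libraries, here and below), against 189.9 ± 14.1 in cluster 2 and 13.4, 8.83 and 1.75 in clusters 0, 1 and 4. Every library of cluster 3 was thus above every library of cluster 2, 2.82-fold on average, and the log2 ratio was smallest in virgin males (1.66, 1.76 and 1.07). A Prkcd UMI was found in 87.6% of thinned nuclei, in 52.1% of those of cluster 2 and in 1.45% (1 of 69) of those of cluster 4, the lowest share. Free RNA was not measured. In none of the 11 nuclei annotated as other than neurons was Prkcd seen.

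Tspear, which encodes a protein with epilepsy-associated repeats known from hearing and from tooth and hair development, was nearly as even over libraries as Lef1. It stood at 196, 227 and 219 CPM, a mean of 214 ± 16.3, against 26.4 ± 9.67 in cluster 2 and 38.8 ± 11.5 in cluster 0. Abhd12b, a gene of the alpha/beta hydrolase family, stood at 275, 322 and 180.1 CPM and at 20.8 ± 8.46 in cluster 0, the next highest. Its log2 ratio to cluster 2 was 4.60 ± 0.81. Unlike Prkcd, Abhd12b was uneven between nuclei, as only 47 of 91 had a UMI and the tenth of nuclei with most UMIs held 61.1% of them, against 25% for Prkcd. After thinning, 53.9% of nuclei held a Tspear UMI and 38.2% an Abhd12b UMI, against 9.57% and 2.13% in cluster 2 and 14.3% and 7.79% in cluster 0.

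Cdh4 stood at 210.2, 285 and 542 CPM, highest in virgin males, and its lowest library was above all libraries of the other clusters. The next levels were in clusters 1 (80.1) and 0 (74.3). In cluster 2 it was at 6.42, 28.4 and 7.1 CPM, the lowest of the clusters, which gave the widest gap between clusters 3 and 2 of the 5 genes (log2 ratio 4.69 ± 1.34). A Cdh4 UMI was in 64% of thinned nuclei of cluster 3 and in 5.32% of those of cluster 2. Lef1 belonged to both clusters. At 767, 734 and 684 CPM it was 1.33-fold above cluster 2 (682, 519 and 462), within the 2-fold limit used here though each library was above all of cluster 2, and above clusters 0 (225), 1 (44.9) and 4 (12.7). The bar plot of the 5 genes by cluster shows these levels.

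**Figure D1:**
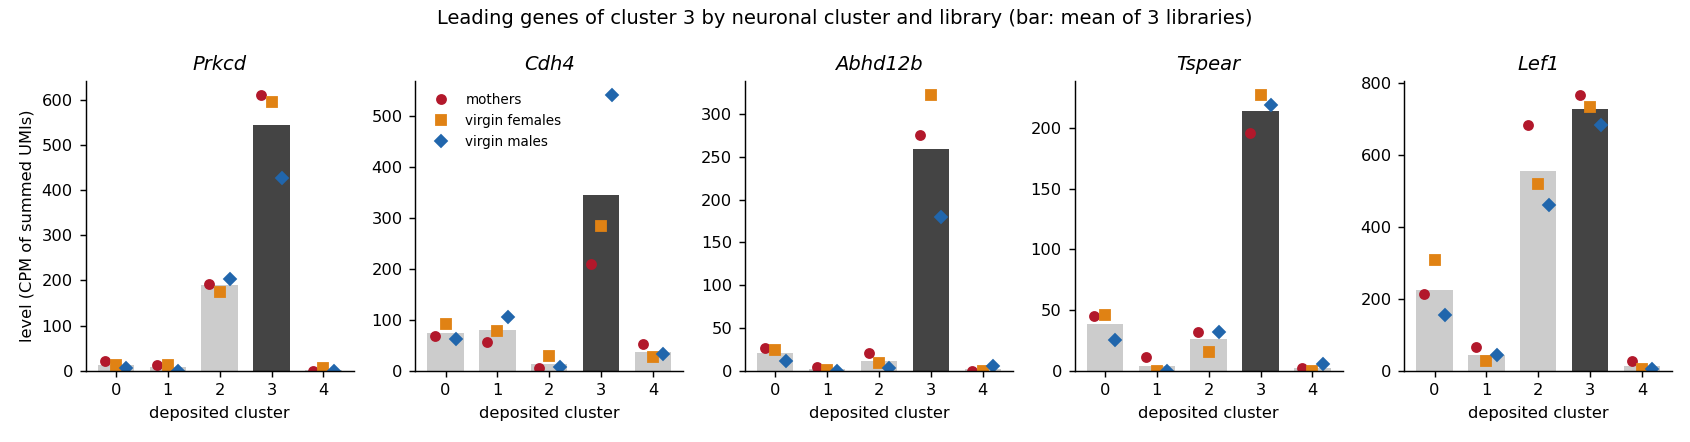
Levels of the 5 leading genes in CPM (vertical axes, each from 0) in the 5 deposited neuronal clusters (horizontal axes). Bars are means of 3 libraries and points the libraries; Prkcd, Cdh4, Abhd12b and Tspear are highest in cluster 3 in every library, while Lef1 is close to it in cluster 2.

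Besides these, the genes that were higher in cluster 3 than in each of the other 4 clusters held enzymes, matrix and cytoskeletal proteins and noncoding RNAs. A gene was counted where every library was at least 1.5-fold above the highest other cluster of that library, which held for 55 (0.48%) of 11467 genes with at least 50 UMIs over the 5 clusters, while 112 (0.977%) were as far below the lowest. With the virgin males left out, 102 and 233 genes met the rule. As the authors drew the clusters from these counts, the lists describe cluster 3 and support nothing about it. Fign, which encodes the microtubule-severing enzyme fidgetin, was the most abundant of the leading ones beside Prkcd. It stood at 589, 604 and 425 CPM against 121 in cluster 2 and 103, 86.9 and 113 in clusters 0, 1 and 4, at least 2.96-fold above the next cluster in each library. Cnksr3, a scaffold of kinase signalling, stood at 159 ± 9.2 CPM against 64.7 ± 14.4 in cluster 2 and 25 or less in the others. All libraries of cluster 3 were above all libraries of the other clusters for Fign and Cnksr3.

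Other genes on this list had single roles. Col18a1, the collagen from which endostatin is cut, stood at 171, 86.3 and 119 CPM against 15.3 ± 9.19 in cluster 2 and 31.1 ± 7.93 in cluster 4. Xylt2, which starts the sugar chains of proteoglycans, stood at 143 ± 22.4 CPM, next to 45.2 ± 8.78 in cluster 0. Rasa4, a Ras GTPase activator that calcium recruits to membranes, stood at 89.8, 60.4 and 54.2 CPM against 11.2 in cluster 2, and Osbpl5, a lipid carrier of the oxysterol-binding family, at 81.1 ± 7.79 against 27.5 ± 14.6. The list of matrix and integrin genes does not include Col18a1, and 0 of its 34 members that could be called were past the fold against every other cluster. Of lower level were Serinc2 (36.6 ± 7.52 CPM, 54 UMIs), the transporter gene Slc12a8 (42.3 ± 7), Plekhd1 (53.4 ± 19.4) and Tmem232 (66.8 ± 3.31). Among noncoding genes, Gm35696 stood at 212, 97.8 and 152 CPM against 18.9 ± 14.6 in cluster 2. The sources used here do not say whether the counting used strand. Gm12536 (45.5 ± 15.5 CPM) lies across from Ptpn3, which had 1439 UMIs in cluster 3, Gm20319 (96.9 ± 24.1) across from Il1rap with 747 UMIs, and A830036E02Rik (32.9 ± 11.2) across from Krt12 with 26, so reads of each pair cannot be told apart. Gene models are those of GENCODE for GRCm38, and Prkcd lies on chromosome 14, 30595354 to 30626210, Cdh4 on chromosome 2, 179442431 to 179899373, Abhd12b on chromosome 12, 70154142 to 70183887 and Tspear on chromosome 10, 77686569 to 77887021.

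Host genes of the microRNA miR-9 were higher in cluster 3 at 2 of the 3 places in the genome that encode it. miR-9 is an abundant microRNA of the nervous system known for its part in neuronal differentiation. The miR-129 hosts described further on, and the host of Mir9-2, were looked at after the values were seen. The mature arms of miR-9, and miR-129-5p, are printed because each comes in the same letters from more than 1 locus. Capitals mark the seed (bases 2 to 8), the stretch that pairs with targets, and the sequences are from RefSeq (GRCm38.p6).
mmu-miR-9-5p: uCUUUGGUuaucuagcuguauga
mmu-miR-9-3p: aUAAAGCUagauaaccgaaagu
mmu-miR-129-5p: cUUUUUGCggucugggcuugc
None of these 3 seeds is shared by another mature microRNA of the RefSeq mouse table. The 3 hairpins that give miR-9 differ only outside the arms, which are in capitals here.
Mir9-1: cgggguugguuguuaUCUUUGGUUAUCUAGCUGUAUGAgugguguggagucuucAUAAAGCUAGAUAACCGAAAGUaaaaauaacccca
Mir9-2: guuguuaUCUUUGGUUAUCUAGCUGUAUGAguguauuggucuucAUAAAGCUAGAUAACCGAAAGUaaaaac
Mir9-3: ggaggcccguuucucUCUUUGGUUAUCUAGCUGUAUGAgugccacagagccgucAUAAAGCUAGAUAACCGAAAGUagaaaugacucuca
Mir9-1 (plus strand, chromosome 3, 88215598 to 88215686) lies in the noncoding gene Gm3764, Mir9-3 (plus strand, chromosome 7, 79505264 to 79505353) in Mir9-3hg and Mir9-2 (plus strand, chromosome 13, 83738814 to 83738885) in C130071C03Rik. Gm3764 stood at 52.1, 46 and 33.2 CPM in cluster 3 (64 UMIs) and at 6.42, 4.36 and 0 in cluster 2. Mir9-3hg stood at 84.4, 104 and 80.5 CPM (129 UMIs) and at 22.5, 34.9 and 24.9 in cluster 2, with means of 11, 9.78 and 1.65 in clusters 0, 1 and 4. Both were past the fold against cluster 2 and against every other cluster, and 30 nuclei held a UMI of both, of 39 with Gm3764 and 59 with Mir9-3hg. C130071C03Rik was not: it stood at 113, 86.3 and 122 CPM in cluster 3, 57.8, 91.7 and 53.3 in cluster 2 and 99.4, 120.2 and 132 in cluster 0. The assay counts 3′ ends of polyadenylated host transcripts, so mature miR-9 was not measured.

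The promoter of Prkcd holds the core letters that LEF/TCF factors such as Lef1 bind, and is shown because both genes were high in cluster 3. The window runs from 250 bases before to 50 after a start of Prkcd (GRCm38.p6, minus strand, chr14:30626159-30626458, from RefSeq), and capitals mark the motif.
Prkcd promoter: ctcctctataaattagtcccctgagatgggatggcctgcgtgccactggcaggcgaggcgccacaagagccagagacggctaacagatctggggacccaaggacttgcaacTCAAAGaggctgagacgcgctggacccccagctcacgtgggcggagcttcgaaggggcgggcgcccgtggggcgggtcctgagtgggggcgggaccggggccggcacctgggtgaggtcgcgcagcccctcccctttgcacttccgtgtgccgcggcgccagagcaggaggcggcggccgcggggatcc
The motif searched was CTTTGA on both strands, with no overlap with another motif considered. It is in this window once, on the opposite strand, and in 5257 (16%) of all 32851 promoter windows of that length. Of 27 windows of the 17 matched genes among the 20 that lead cluster 3 against every other cluster, 5 held it (18.5%), near the share of all windows. The letters are a description and do not show a bound site.

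Genes that were lowest in cluster 3 were in part nearly missing there. Slc35f4, a solute carrier gene, had 1 UMI in cluster 3, or 0.599 CPM, against 34.6 ± 27.7 CPM in cluster 2 and 259 ± 16.3 in cluster 1. Rspo3, a secreted amplifier of Wnt signals, had 1 UMI, against 48.1, 26.2 and 74.6 CPM in the libraries of cluster 2 and 138 ± 61.5 in cluster 4. Adcy2, an adenylyl cyclase, had 2 UMIs, against 40.1, 50.2 and 63.9 CPM in cluster 2 and 47.7, 109 and 75.1 in clusters 0, 1 and 4. Lbh, a transcription cofactor that answers Wnt signals, had 0 UMIs, against a mean of 6.77 CPM in cluster 2 and 16.6 in cluster 0. No fold to cluster 2 is given for genes with 3 UMIs or fewer in cluster 3.

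Others were abundant elsewhere and low here. Kcnq5, a subunit of the potassium channels behind the M current, stood at 32.3, 40.3 and 28 CPM in cluster 3, 242, 179 and 263 in cluster 2 and at 939.9, 845 and 1109 in cluster 0 and 1084, 1236 and 870.4 in cluster 4. Dab1, the adaptor of reelin signalling, stood at 7.19, 14.4 and 7 CPM (13 UMIs) against 124, 122 and 149 in cluster 2, 0.0758 of that level, and 624, 678 and 466 in clusters 0, 1 and 4. Prr16 stood at 30.5, 37.4 and 101 CPM against 408 ± 101 in cluster 2, and Alcam, a cell adhesion molecule of growing axons, at 7.19, 5.75 and 22.7 against 78.6, 28.4 and 159.8. Fstl5, a secreted follistatin-like protein, stood at 10.9 ± 5.2 CPM against 80.1 ± 26.3, and the cytoskeletal adaptor gene Epb41l2 had 2 UMIs. For Dab1, Kcnq5, Prr16 and Fstl5 no library of cluster 3 came near any library of another cluster, while the virgin males' 22.7 CPM of Alcam came near the virgin females' 28.4 in cluster 2.

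Of the 4 other clusters, cluster 2 was nearest to cluster 3 by the share of genes past a fold. A gene was counted where all 3 libraries differed at least 2-fold in the same direction. Against cluster 2, 48 (0.641%) of 7493 genes with at least 50 UMIs in the pair were higher in cluster 3 and 58 lower (0.774%), and with the virgin males left out 78 and 88. Against cluster 0 these were 209 (2.41%) and 331 (3.82%) of 8659, against cluster 1 430 (5.03%) and 571 (6.68%) of 8545, and against cluster 4 424 (6.18%) and 369 (5.38%) of 6858. Of the 48 higher than cluster 2, 24 were also higher than every other cluster, which is 50% of the 48 and 43.6% of the 55. Of the 58 lower, 21 were lower than every other cluster, or 36.2% of the 58 and 18.8% of the 112.

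Some genes therefore set cluster 3 apart from cluster 2 while they were as high in a more distant cluster. D030068K23Rik, a noncoding gene of chromosome 8, stood at 650.3, 506 and 729 CPM in cluster 3 and 70.6, 87.3 and 56.8 in cluster 2, but at 744, 662 and 883 in cluster 0. Shisa6, an auxiliary protein of AMPA receptors, stood at 463, 480.5 and 425 CPM against 67.4, 113 and 99.5, and at 404 ± 88.7 in cluster 1 (it overlaps the noncoding gene Gm12296, with 203 UMIs in cluster 3). Sgcz, a sarcoglycan, stood at 559, 414 and 285 CPM against 101, 91.7 and 74.6, and at 1469.6 ± 157 in cluster 1. All 3 libraries of cluster 3 lay above all 3 of cluster 2 for each of these genes.

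The 10 genes lowest against cluster 2 included Fgf10, Hs3st4, Egflam, Ephb1 and Me3. Fgf10, a fibroblast growth factor, stood at 5.39, 2.88 and 3.5 CPM in cluster 3 (6 UMIs) and 260.0, 80.7 and 170.5 in cluster 2, 0.0318 of that level. Hs3st4, which sulfates heparan sulfate, had 3 UMIs against 112, 142 and 85.2 CPM, and Egflam, the matrix protein pikachurin, had 3 UMIs against 54.6, 24 and 60.4 CPM. Ephb1, a receptor of ephrins that guides axons, had 2 UMIs against 80.2, 10.9 and 39.1 CPM in cluster 2 and 289 and 322 in clusters 1 and 4, while cluster 0 (2.8) was as low as cluster 3. Me3, a mitochondrial malic enzyme, stood at 7.5 ± 6.07 CPM against 57.1 ± 31.3. The scatter of cluster 3 against cluster 2 shows the genes past the fold on either side of a narrow diagonal.

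**Figure D2:**
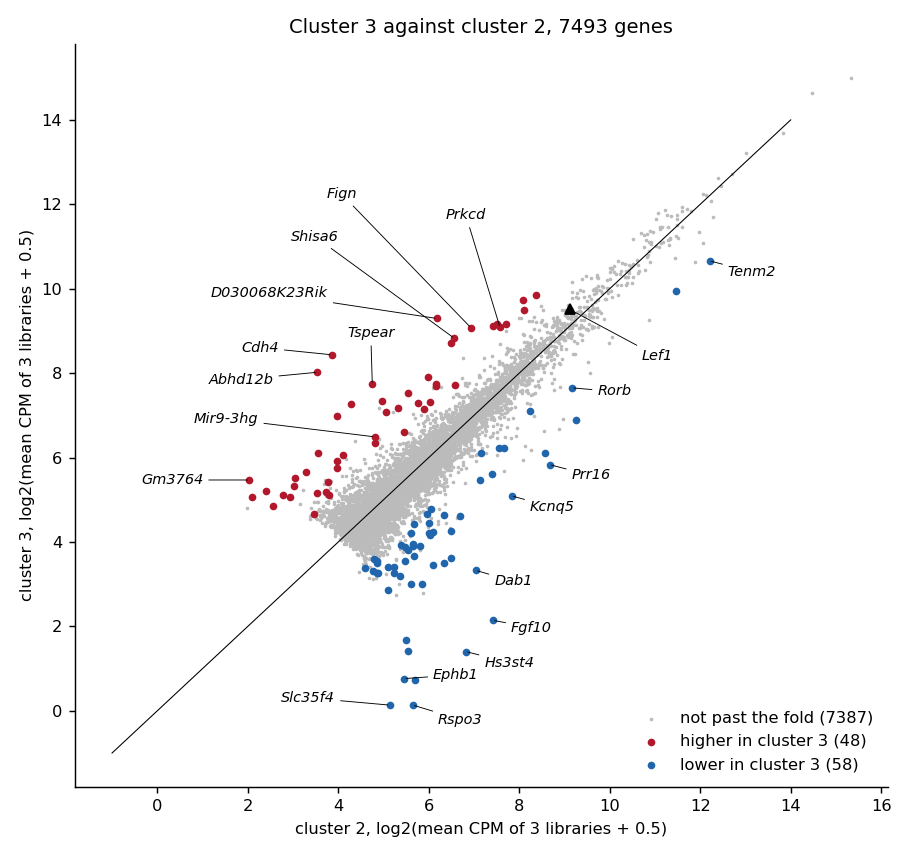
Mean level of 7493 genes in cluster 3 (vertical axis) and cluster 2 (horizontal axis), both as log2(CPM + 0.5) of the mean of 3 libraries; red and blue points are the 48 higher and 58 lower genes. Cdh4 and Abhd12b lie farthest above the diagonal among the leading genes, Lef1 (triangle) close to it.

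What cluster 3 shared with cluster 2 was counted as well, in a comparison chosen after the values were seen. Of 11467 genes, 74 (0.645%) were in both clusters at least 1.5-fold above each of clusters 0, 1 and 4 in every library, and 94 (0.82%) as far below (142 with the mothers left out). Prkcd, Lef1 and Plekhg1, 3 of the 6 thalamic markers, were among the 74. So was Sox5, a transcription factor of neuronal differentiation, at 442, 399.9 and 477 CPM in cluster 3 and 427, 225 and 483 in cluster 2 against means of 10.5 to 98.3 in the others. Gabrd, the delta subunit of GABA-A receptors outside synapses, stood at 130.3 ± 27.9 CPM in cluster 3 and 81.7 ± 8.69 in cluster 2, against 31.3 ± 4.67 in cluster 0. Rasgrp1, a Ras activator that diacylglycerol recruits, stood at 186 ± 46.4 and 133 ± 30.1 CPM in the pair against 38.1 ± 9.5 in cluster 0. Slc17a7, the vesicular glutamate transporter VGLUT1, stood at 56.2 ± 7.82 and 43.2 ± 17.9 CPM, against 14.6 or less in the others, while Slc17a6 (VGLUT2), the transporter of habenular and thalamic neurons, was at 322 ± 29.2 CPM in cluster 3 and 435 ± 35.5 in cluster 2. On the low side were the potassium channel gene Kcnh8 (6 UMIs), the opioid receptor gene Oprk1 (0 UMIs) and Prkg1, the cGMP-dependent kinase (155 ± 14.9 CPM against 287 ± 87.1 in cluster 2 and 3594 ± 614 in cluster 4). Of the 55 genes higher in cluster 3 than in every other cluster, 8 were also on this shared list (14.5% of the 55 and 10.8% of the 74).

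**Figure D3:**
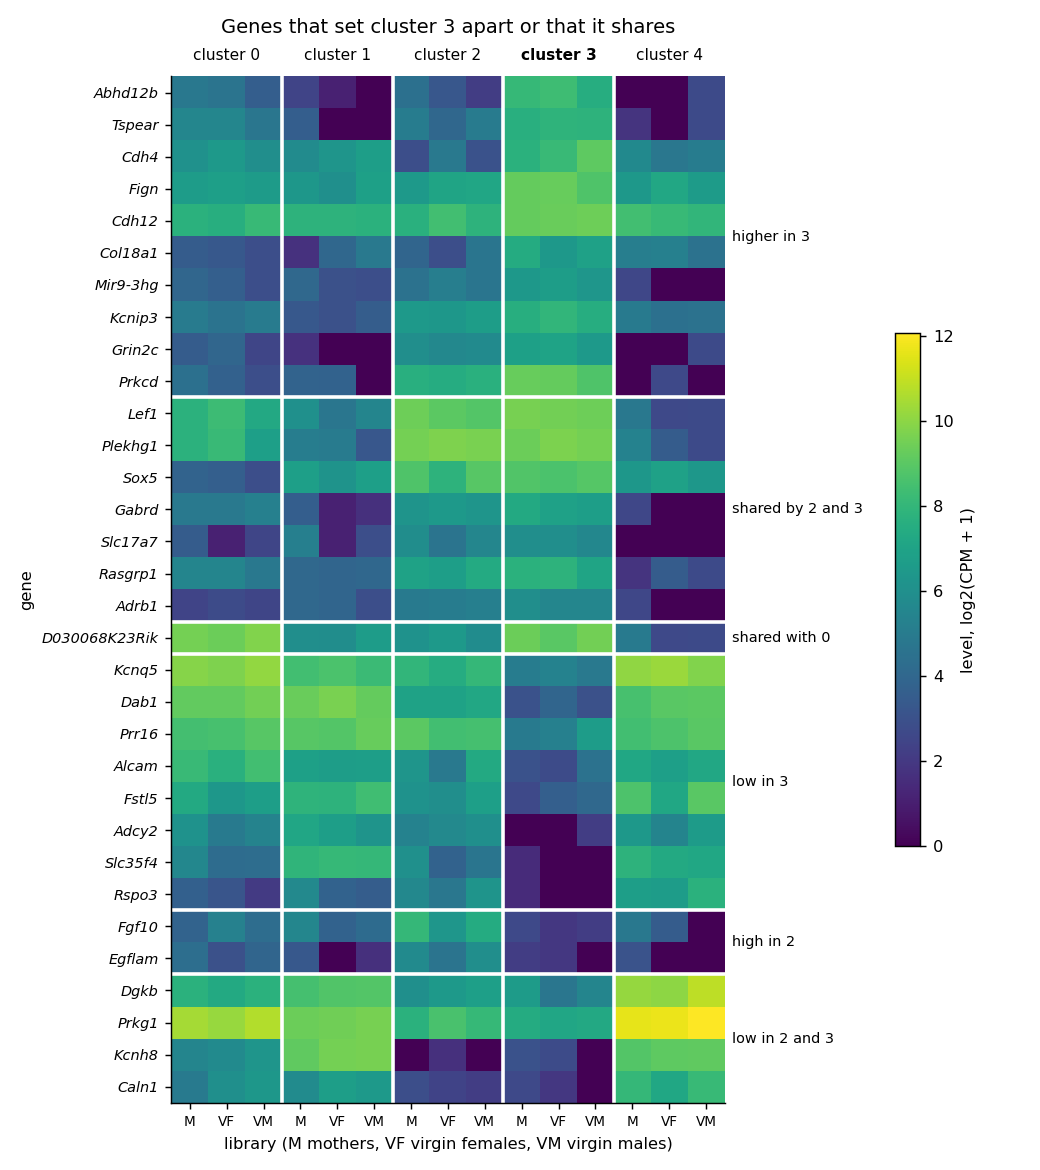
Level of 32 genes (rows) in the 15 combinations of cluster and library (columns), coloured by log2(CPM + 1). Genes of the top block are brightest in cluster 3, those of the next block in clusters 2 and 3, and Kcnq5, Dab1, Prr16, Alcam, Fstl5, Adcy2, Slc35f4 and Rspo3 are darkest in cluster 3.

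Within families, cluster 3 differed from cluster 2 by few members. The median log2 ratio of cluster 3 to cluster 2 was -0.06 over 12605 genes with at least 10 UMIs. Of the 12 protein kinase C and D genes, 9 had that many, with a median of 0.15, and Prkcd alone was past the fold among the 8 with the 50 UMIs a call needs. Prkce, a calcium-independent isoform, stood at 463 ± 78.9 CPM against 412 ± 48.4 and Prkch at 206 ± 55.9 against 193 ± 32.5, both within the spread of the libraries. Prkcq, which stood at 265 ± 75.7 CPM in cluster 1, had 1 UMI in cluster 3. No member of the diacylglycerol signalling list was past the fold against cluster 2 (34 of 39 genes with at least 10 UMIs, median 0.16, and 25 with 50).

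Of 27 classical and type II cadherins and catenins, 19 had at least 10 UMIs (median 0.06) and 17 the 50 a call needs, and Cdh4 and Cdh18 were past 2-fold. Cdh18 stood at 526, 434 and 768 CPM against 197, 172 and 252 in cluster 2, but at 1759.6 ± 199 and 1759 ± 256 in clusters 1 and 4. Cdh12, at 587, 642 and 673 CPM, was above every other cluster by at least 1.74-fold in each library, though not 2-fold above cluster 2 in virgin females. Cdh6 (70 ± 14 CPM against 146 ± 19.4) and Cdh8 (517 ± 133 against 734 ± 94.5) were lower than in cluster 2 on average and not past the fold. Cdh2, the N-cadherin of neurons, stood at 481 ± 85.1 CPM, Ctnnb1 (beta-catenin) at 123 ± 20.4, and neither was past the fold. Of 11 protocadherins 9 had at least 10 UMIs, with a median of -0.92, and Pcdh7 (96.7 ± 15.7 CPM) and Pcdh17 (89 ± 31.3) were below every other cluster by the 1.5-fold rule.

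In the Wnt pathway only Rspo3 was past the fold against cluster 2, of 47 genes with at least 10 UMIs (median 0.08) and 31 with 50. Lef1 was accompanied by Tcf7l2, the LEF/TCF factor most used in thalamus and habenula, at 1024, 1085 and 843 CPM (cluster 2, 833 ± 33.5), while Tcf7 and Tcf7l1 had 1 and 2 UMIs. Among transcription factors of thalamus and habenula (29 of 38 with at least 10 UMIs, median 0.06, and 22 with 50), Rorb was lower, at 174, 224 and 203 CPM against 568, 563 and 593 in cluster 2. Its paralogue Rora ran the other way, at 3745 ± 103 CPM against 2379 ± 37.9, 1.57-fold and not past the fold, although all libraries of cluster 3 were above all libraries of cluster 2.

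Receptors and channels differed singly. Of 25 ionotropic glutamate receptor genes (median -0.06) only Cacng3, an AMPA receptor auxiliary subunit, was past the fold, at 10.8, 17.3 and 28 CPM against 124, 58.9 and 85.2. Grin2c, an NMDA receptor subunit, stood at 115, 127 and 87.4 CPM against 61, 48 and 53.3, under 2-fold in mothers and virgin males but past the 1.5-fold rule against every other cluster. Of 19 GABA and glycine receptor genes (median -0.01), 17 had the 50 UMIs a call needs and Gabrg3 was higher. It stood at 709.6, 906 and 1133 CPM against 212, 423 and 352, while cluster 4 was higher still (mean 1367). Of 47 potassium channel genes (median 0.06, 42 with 50 UMIs), Kcnk10, Kcnq5 and Kcns2 were lower and none was higher. Kcnip3, a calcium sensor that binds Kv4 channels, was past the 1.5-fold rule against every other cluster (205 ± 36.5 CPM against 92.5 ± 10.1 in cluster 2). Of 20 high-voltage calcium and sodium channel genes with 50 UMIs, Cacna1e, the R-type calcium channel, was lower at 74.6 ± 23.8 CPM against 204 ± 66.4. Cacna1g, the T-type channel of thalamic bursting, stood at 267 ± 45.4 and 228 ± 16.5. In 8 further lists 0 members were past the fold, where 0.641% of all genes were higher and 0.774% lower. The members that could be called there were 4 T-type and HCN channels, 7 metabotropic glutamate receptors, 5 amine receptors, 4 acetylcholine receptors, 4 transmitter identity genes, 11 hormone receptors, 6 immediate early genes and 12 heat shock genes, so a count of 0 says little.

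Further single genes past the fold against cluster 2 came from lists of adhesion, guidance and secreted proteins. Over all genes 0.641% were higher and 0.774% lower, and a call needs 50 UMIs. Of 49 synaptic organisers (median -0.09, 48 with 50 UMIs), Tenm2 was lower at 1685, 1619.9 and 1544 CPM against 5239.8, 4524 and 4458. So were Ntm (985 ± 302 against 2846 ± 461) and Cntnap4 (74.2 ± 12.2 against 188 ± 60.9). Of 42 axon guidance genes (median -0.22, 32 with 50 UMIs), Ephb1 and Nrp1 were lower. Lamb1, a laminin chain, was higher at 26.9, 40.3 and 31.5 CPM against 11.2, 0 and 0. With Egflam lower, the matrix list of 32 genes (median 0.13, 21 with 50 UMIs) had 1 of each. Col18a1, which is not on that list, was also past the fold above cluster 2. Of the growth factors and their receptors (32 genes, median -0.06, 23 with 50 UMIs), Fgf10 and Alk were lower and Ret was higher. Ret, the receptor of glial-derived neurotrophic factors, stood at 30.5, 14.4 and 40.2 CPM against 4.81, 4.36 and 7.1. Of 11 neuropeptide and prohormone genes with 50 UMIs, Vgf, a neuropeptide precursor, was higher at 137, 138 and 150.4 CPM against 62.6, 45.8 and 67.5. Of 19 G protein and RGS genes with 50 UMIs, Rgs6, a brake on G protein signals, was higher at 296, 265 and 159 against 30.5, 122 and 35.5. Of 12 genes of calcium-binding proteins with 50 UMIs, Calb2 (calretinin) was lower at 8.98, 8.63 and 14 CPM against 77, 58.9 and 67.5. It was also below every other cluster. These lists were written with earlier results of these data known.

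Nuclei of cluster 3 differed among themselves in some genes. Of 820 genes with a mean of at least 1 UMI in thinned nuclei, the median Fano factor (variance over mean, which counting alone would put near 1) was 1.24, and 98 genes were at 2 or more. Beside the abundant noncoding RNA Malat1 and the potassium channel partner Kcnip4, these included Lrrtm4, Npas3, Opcml, C6, Thsd7b, Col25a1 and Abhd12b. The factor was taken over the nuclei of all 3 libraries together, so it also holds differences between libraries. Median levels by library were 981, 2298 and 2703 CPM for Lrrtm4, 129, 347 and 711 for Col25a1, and 1605, 1516 and 637 for Opcml. The part of the libraries in the factor was not tested. Within cluster 3, Lef1 and Prkcd had a UMI in 87 nuclei each, Tspear in 79, Cdh4 in 75 and Abhd12b in 47. Of the 47 nuclei with Abhd12b, 40 also held Cdh4. These genes were picked for their spread. The plot of single nuclei shows Prkcd spread around its median, and Abhd12b at 0 in many nuclei and as high as 2289.9 CPM in 1.

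**Figure D4:**
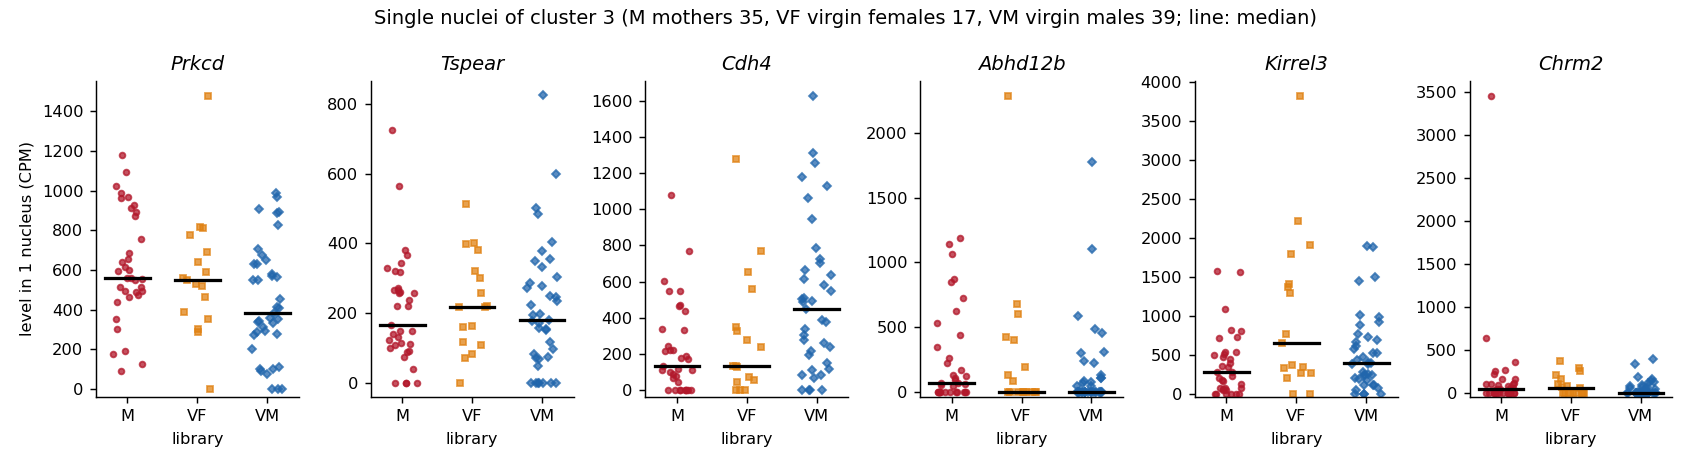
Level of 6 genes in the single nuclei of cluster 3 (CPM of the nucleus, vertical axes) by library (35, 17 and 39 nuclei); lines are medians. The Cdh4 median is 445 CPM in virgin males against 132 in mothers and 132 in virgin females, and 1 nucleus of mothers holds most of their Chrm2.

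The second subtype scheme split cluster 3 along genes that mostly were not its leading ones, and the genes named here were picked from their values. Nuclei labelled LHb2 (8 in mothers and 6 in virgin males) were set against those labelled LHb1 (27 and 33), leaving out virgin females with 1. Of 3970 genes, 11 (0.277%) were at least 2-fold higher in LHb2 nuclei in both libraries and 43 (1.08%) lower. The LHb2 nuclei summed to only 114919 UMIs in mothers and 76488 in virgin males, against 441770 and 495278 for LHb1. Low levels in LHb2 nuclei therefore rest on few UMIs, and the part of this in the 2 counts was not tested. Thsd7b stood at 312 CPM in LHb1 nuclei of mothers and 464 in those of virgin males, against 104 and 26.1 in LHb2 nuclei. Grik4, a kainate receptor subunit, had 44 and 37 UMIs in LHb1 nuclei and 1 and 1 in LHb2 nuclei, and Tafa1, a secreted brain protein, 70 and 57 against 2 and 0. The gene 4930555F03Rik ran the other way, at 70.2 and 54.5 CPM in LHb1 and 322 and 196 in LHb2. Prkcd was at 611 and 609 CPM in LHb1 and LHb2 nuclei of mothers and at 409.9 and 536 in those of virgin males. Cdh4 was lower in LHb2 nuclei, at 69.6 (8 UMIs) against 247 CPM in mothers and 431 (33 UMIs) against 559 in virgin males. The sources used here do not say how these labels were made, so no independence from the counts is claimed.

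The share of cluster 3 among neuronal nuclei differed between libraries. It was 17.4% in mothers (35 of 201, 95% exact Clopper-Pearson interval 12.4 to 23.4), 9.09% in virgin females (17 of 187, 5.39 to 14.2) and 19.1% in virgin males (39 of 204, 14 to 25.2). The intervals of virgin females and mothers overlapped, and those of virgin females and virgin males met only between 14 and 14.2. Among nuclei with at least 5000 UMIs the shares were 18.2%, 9.88% and 21.8%. These intervals, and those of ratios below, cover counting error only and not the spread between mice, dissections or sorts. The intervals of ratios treat each UMI as independent, so they also leave out the spread between nuclei and are too narrow where nuclei differ. Kirrel3, described below, had 91 of its 331 UMIs of virgin females in 1 nucleus.

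Of the 5 leading genes, Cdh4 differed most between the libraries of cluster 3. Its ratio of mothers to virgin males was 0.388 [0.311, 0.481] (95% exact conditional interval) and the only one of the 5 past 2-fold in any pair. It was 0.398 [0.313, 0.501] after the nucleus with most Cdh4 UMIs was left out of each library, and 0.719 [0.536, 0.965] in the other 4 clusters summed. Virgin males stood above virgin females by 1.9 [1.51, 2.41]. Within nuclei labelled LHb1, Cdh4 was at 247 CPM in mothers and 559 in virgin males. Abhd12b and Prkcd ran the other way, with ratios of mothers to virgin males of 1.53 [1.18, 1.98] and 1.43 [1.21, 1.69], and Tspear (0.896 [0.686, 1.17]) and Lef1 (1.12 [0.976, 1.29]) had intervals that held 1. Ratios in the other 4 clusters, here and below, were taken over their summed UMIs, and the mix of clusters differed between libraries. Cluster 2, where Cdh4 was lowest, gave 623115 UMIs in mothers and 281534 in virgin males, and cluster 0 gave 663885 and 626481. The part of this mix in those ratios was not tested.

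Depth and RNA markers differed between the libraries of cluster 3 too. Median mitochondrial UMIs were 0.0257%, 0.025% and 0.057%, and astrocyte markers summed to 331, 265 and 306 CPM. Their part in the library differences was not tested. Over all genes, mothers against virgin males gave 71 (1.79%) of 3970 genes with at least 50 UMIs in the pair at least 2-fold higher and 51 lower (1.28%). Mothers against virgin females gave 46 (1.39%) and 21 (0.636%) of 3304, and virgin males against virgin females 47 (1.43%) and 36 (1.1%) of 3283. The pairs share libraries, so their values are given side by side only. Some of these genes rested on 1 nucleus. Mrpl9, a mitochondrial ribosomal protein gene, had 49 UMIs in mothers, of which 42 were in 1 nucleus, and 3 in virgin females. Ppil6, Ebpl and Nfs1 had 43, 43 and 53 UMIs in virgin females, of which 40, 38 and 44 were in 1 nucleus each. Without the top nucleus of each library the ratio of Mrpl9 in mothers to virgin females went from 10.2 [3.29, 51.1] to 2.14 [0.407, 21.1], and that of Nfs1 from 0.283 [0.167, 0.466] to 1.4 [0.611, 3.5]. Chrm2, the muscarinic receptor M2, had 91 of the mothers' 145 UMIs in 1 nucleus, and its ratio of mothers to virgin males went from 5.96 [3.88, 9.51] to 2.72 [1.62, 4.75].

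Host genes of miR-129 were both higher in mothers than in virgin males within cluster 3. Mir129-1 (plus strand, chromosome 6, 29022619 to 29022691) lies in the noncoding gene Gm3294 and Mir129-2 (minus strand, chromosome 2, 94241364 to 94241453) in Mir670hg, and both give the mature miR-129-5p printed above, a microRNA of the brain. Gm3294 had 48, 9 and 3 UMIs in mothers, virgin females and virgin males, or 86.2, 25.9 and 5.25 CPM. Its ratio of mothers to virgin males was 16.4 [5.3, 82.5], which rests on the 3 UMIs of virgin males, and it was 1.27 [0.752, 2.2] in the other 4 clusters summed. Mir670hg had 97, 28 and 15 UMIs, or 174, 80.6 and 26.2 CPM, with a ratio of 6.64 [3.83, 12.3], and 2.03 [1.59, 2.62] in the other clusters. A UMI of Gm3294 was found in 19 of 35 nuclei of mothers, 6 of 17 of virgin females and 3 of 39 of virgin males, and 15 nuclei of mothers held both genes. Mothers of cluster 3 stood above both other libraries for each gene, and for Mir670hg the other clusters were also highest in mothers. The hosts of miR-9 did not differ past 2-fold, as Mir9-3hg gave 1.05 [0.684, 1.61] and Gm3764 1.57 [0.85, 2.96] for mothers to virgin males.

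Of the list of synaptic organisers and adhesion genes, 0 of 39 that could be called were past the fold in mothers to virgin females, 1 of 39 higher and 1 lower in virgin males to virgin females, and 3 of 43 higher and 4 lower in mothers to virgin males. Of the genes described next, only Opcml, Cntnap5a and Lrrc4c were past the fold as members of this list. Kirrel3 and Galnt14 are not on it, and the others were named by their intervals or from other lists. Each gene described next kept its direction without the top nucleus. Kirrel3, an adhesion molecule of synapse formation, stood at 366, 952 and 516 CPM, with a ratio of mothers to virgin females of 0.385 [0.322, 0.46] and 1.03 [0.972, 1.09] in the other clusters. Opcml, an adhesion protein anchored by a lipid, stood at 1918, 1991 and 824 CPM, and virgin males were at 0.414 [0.367, 0.466] of virgin females (0.75 [0.715, 0.788] in the other clusters). Epha5, an ephrin receptor, stood at 82.6, 161 and 296 CPM and Cntnap5a, of the neurexin superfamily, gave a ratio of mothers to virgin males of 0.321 [0.224, 0.451], against 0.803 [0.714, 0.902] elsewhere. For Epha5 that ratio was 0.28 [0.197, 0.389] in cluster 3 and 0.837 [0.776, 0.903] elsewhere. Galnt14, an enzyme that starts O-linked sugar chains, had 167, 50 and 42 UMIs and was 4.08 [2.9, 5.87] times as high in mothers as in virgin males. Lrrc4c, the netrin-G1 ligand, was higher in virgin males than in virgin females by 2.05 [1.67, 2.53], and Luzp2 and Cpne4 by 2.51 [1.7, 3.78] and 1.93 [1.59, 2.37]. The noncoding gene Rmst was at 0.352 [0.272, 0.451] in mothers to virgin males, and the adaptor gene Gulp1 at 0.219 [0.0985, 0.438], with 0.73 [0.683, 0.78] and 0.469 [0.39, 0.562] in the other clusters.

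Further genes named by their intervals had other roles. Dgkb, a diacylglycerol kinase, stood at 97, 25.9 and 43.7 CPM, with a ratio of mothers to virgin females of 3.75 [1.83, 8.63] and 1.17 [1.06, 1.3] elsewhere. Adamts19, a metalloprotease of the matrix, had 48, 3 and 32 UMIs, and the antisense gene 1600010M07Rik had 50, 7 and 31. Cachd1, which modulates calcium channels, gave 0.312 [0.187, 0.509] for mothers to virgin females, and Cntnap3, an adhesion protein, 0.24 [0.124, 0.434] for mothers to virgin males. The mitochondrial genes mt-Atp6 and mt-Cytb were higher in virgin males than in virgin females by 2.98 [1.87, 4.96] and 3.32 [1.73, 6.99], as were the mitochondrial percentages above. Rab31, a vesicle GTPase, was at 0.287 [0.171, 0.47] in the same pair.

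Genes tied to hormones and activity were mostly too low to be called between libraries. Of 12 hormone receptor genes with at least 10 UMIs, 6 or 7 a pair had the 50 UMIs a call needs, and 0 were past 2-fold. Their median log2 ratios were -0.38 for mothers to virgin females, -0.23 for virgin males to virgin females and -0.46 for mothers to virgin males, against medians over all genes of 0.02, -0.02 and 0.04. Over the members with 50 UMIs the medians were -0.26, 0.07 and -0.27, so the sign turned for virgin males to virgin females. Of the immediate early genes, which neurons switch on with activity, 2, 1 and 2 could be called in these pairs. Nr4a1 was past the fold in mothers to virgin males at 2.14 [1.28, 3.69], and 1.57 [0.953, 2.67] in the other clusters. Fos had 12 UMIs in all of cluster 3. In mothers to virgin males, where 1.79% of all genes were higher and 1.28% lower, 1 of 9 neuropeptide and prohormone genes with 50 UMIs was past the fold. This was Scg2, at 0.477 [0.35, 0.644]. Only 2 neuropeptide and opioid receptor genes could be called, and Oprm1, the mu opioid receptor, was at 0.463 [0.33, 0.642]. Of 21 axon guidance genes with 50 UMIs, Epha5 and Sema3e were past the fold in mothers to virgin males (2.24 [1.23, 4.23] for Sema3e). Of 20 in virgin males to virgin females, Unc5d was (2.3 [1.26, 4.49]), where 1.43% of all genes were higher and 1.1% lower.

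**Figure D5:**
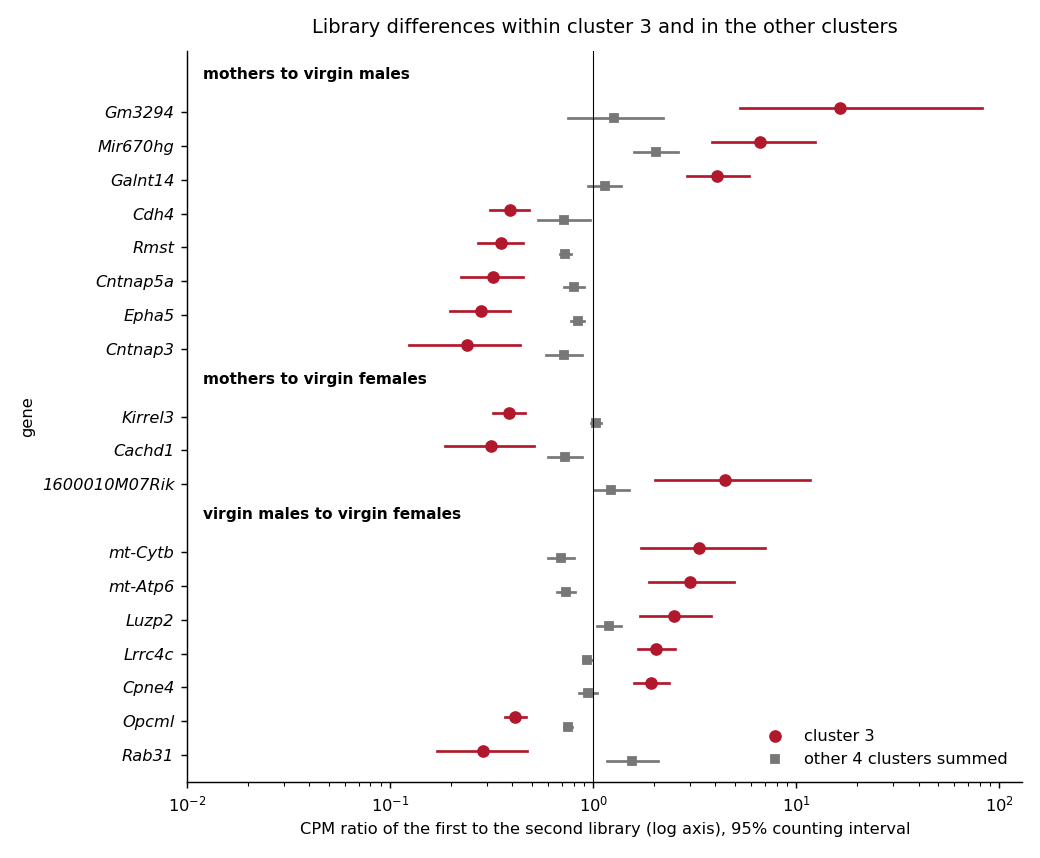
CPM ratios between libraries (horizontal log axis) for 18 genes (rows) within cluster 3 (red circles) and in the other 4 clusters summed (grey squares), with 95% counting intervals. Gm3294, Galnt14, Kirrel3 and Lrrc4c lie away from 1 in cluster 3 and close to 1 elsewhere, while Mir670hg, Cdh4, Rmst and Epha5 lie on the same side of 1 in both. The mix of the other clusters differed between libraries, and its part in their ratios was not tested.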

How the data were processed

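Single-nucleus RNA of KASH-GFP+ nuclei was deposited as 1 table of UMI counts per gene and nucleus, not normalized. Cell Ranger 5.0.1 and the builds GRCm38 and mm10 are named per the submitters' processing notes. The nucleus filters, the clustering method, doublet removal and intron counting go unstated there. Clusters, subtype labels and the percent of mitochondrial UMIs are those of the authors' deposited metadata, which was joined to the counts by the pair of UMI total and gene number (603 of 603 nuclei). No doublet caller was run.

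From these, UMIs were summed per cluster and library and scaled to CPM, with 0.5 UMI added before log2. Past the fold means at least 2-fold, or 1.5-fold against every other cluster, in all 3 libraries, for genes with at least 50 UMIs. List members needed 10 UMIs. With 1 library per group no test was run, and intervals are exact and cover counting error only. Those of ratios treat each UMI as independent and leave out the spread between nuclei. Named are the 5 given genes, the 20 highest and 10 lowest against every other cluster by their least extreme library, the 10 highest and 10 lowest against cluster 2, the 5 highest and 5 lowest per pair of libraries by the interval bound nearest to 1, and list members. Of these, 4 are not reported here. The members, the gene lists and the comparisons were chosen with earlier results of these data known, and that of clusters 2 and 3 with the rest after seeing the values. Alternatives changed the weighting, depth, filters, scaling and libraries. The scripts (Python 3.11.15, numpy 2.4.6, pandas 2.3.3, scipy 1.17.1, matplotlib 3.10.9) were tested on simulated data.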

Additional observations from a re-analysis of the deposited data

Results flagged for a closer look

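For 5 genes, ratios ran opposite ways in groups of nuclei, and none of these differences was tested. Ratios in the other 4 clusters were taken over their summed UMIs, and the mix of those clusters differed between libraries. Nfs1, the cysteine desulfurase of iron-sulfur clusters, had a log2 ratio of cluster 3 to cluster 2 of 2.39 in virgin females and -1.02 in virgin males. Its ratio of mothers to virgin females was 0.283 in cluster 3 and 1.62 in the other 4 clusters, and 44 of the 53 UMIs of virgin females in cluster 3 lay in 1 nucleus. The ratio of virgin males to virgin females was above 1 in cluster 3 and below it in the other 4 clusters for the mitochondrial genes mt-Atp6 (2.98 and 0.735) and mt-Cytb (3.32 and 0.698) and for Lrrc4c (2.05 and 0.936). For Rab31 the same ratio was 0.287 in cluster 3 and 1.56 elsewhere. Median mitochondrial percentages of single nuclei did not turn in the same way as the summed mitochondrial genes. They were higher in virgin males than in virgin females in clusters 0 (0.0796% and 0.0444%), 1 (0.137% and 0.0669%) and 2 (0.0615% and 0.0486%). In cluster 4 they were 0.0589% and 0.0618%.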

How the results depend on the processing

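No paired analysis was possible because each group has 1 library. No gene named against cluster 2 changed sign over 400 alternative values (371 within the spread). Many of these values could not have turned. A minimum of 20 or 100 UMIs leaves a gene's ratio as it was. Leaving out 1 library cannot turn a mean of ratios that had the same sign in all 3 libraries, as those of the named genes did. The shares of nuclei moved by less than their intervals. Counts of genes higher and lower depended on depth and filters, and the cause was not tested. With nuclei thinned to 5000 UMIs they were 26 and 26 against cluster 2, 32 and 56 against every other cluster, 49 and 40 for clusters 2 and 3 together, 8 and 6 for mothers to virgin females, 12 and 10 for virgin males to virgin females, and 14 and 18 for mothers to virgin males. Of the 48 and 58 genes against cluster 2, 23 and 13 kept their call when thinned. With a minimum of 20 UMIs, which adds genes, the counts were 76 and 113 against cluster 2 and 254 and 159, 230 and 174, and 297 and 204 for the 3 pairs of libraries in that order. With a minimum of 100 UMIs they were 29 lower against cluster 2 and 14 and 2, 10 and 7, and 19 and 21 for the pairs. Without the 5% of nuclei with most UMIs, 44 genes were higher in mothers than virgin males. Without each gene's top nucleus, 72 were higher and 12 lower in mothers than virgin females, and 86 higher in virgin males than virgin females. Leaving out 1 library gave 52 to 78 higher and 62 to 88 lower against cluster 2, 63 to 102 and 197 to 233 against every other cluster, and 92 to 109 and 123 to 142 for clusters 2 and 3 together. The highest of these came without virgin males, but for the last pair, which came without mothers. Any 1 library left out moved the count below every other cluster over 1.5 times (218 without mothers, 197 without virgin females), and 83 were higher without virgin females. Signs turned for 5 of 210 values between libraries, of which those with a minimum of 20 or 100 UMIs could not turn. Chrm2 was at -0.17 (log2, mothers to virgin females) without the 5% richest nuclei. Without the top nucleus, Ppil6 was at 0.44 and Nfs1 at 0.45 in that pair, and at 0.16 and 0.53 in virgin males to virgin females. With members of at least 50 UMIs, median log2 ratios to cluster 2 were 0.094 for T-type and HCN channels (-0.77 with 10), 0.064 for transmitter identity genes (0.36) and -0.082 for cyclic nucleotide genes (-0.03). Depth limits genes of low level: 3 UMIs stand for 8.63 CPM in virgin females.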
